A study of Mus musculus with 20 samples.

Results

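The genes of nuclear oxidative phosphorylation (OXPHOS) encode the protein subunits that the cell nucleus supplies to the mitochondrial respiratory chain and to ATP synthase. They were chosen by symbol as the protein-coding genes named Nduf followed by a, b, c, s or v and a number, Sdha to Sdhd, Uqcr, Cyc1, Cox4 to Cox8 and Atp5. The choice took 86 of the 47069 genes with deposited counts, and 10 processed pseudogenes with such names were left out. By name, 35 genes were counted with complex I, 4 with complex II, 9 with complex III, 20 with complex IV and 18 with complex V. Ndufa4 and its paralogue Ndufa4l2 were counted with complex IV, where the Ndufa4 protein is found. Cox7a2l, Atp5s and Atp5sl (Dmac2 in the annotation) carry such names but were not counted as subunits of the enzymes. The first helps to join complexes into larger assemblies, and the others are accessory factors. Atp5sl is listed with complex V for its older name only. Ndufab1, the acyl carrier protein of complex I, has a symbol outside the rule and is given separately.

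The data are RNA-seq of kidneys from 20 males killed at 15 weeks, deposited as estimated counts per gene. The mice were an F1 cross of the strains 129SJ and C57Bl/6J. The 5 WT mice received no treatment. The other 15 mice were F1-Col4a3-/- mice, homozygous in every cell for the Col4a3tm1Dec allele, which disrupts a chain of the type IV collagen of the glomerular basement membrane, and were treated from 5 weeks of age. The 6 Veh mice received weekly subcutaneous PBS. The 6 anti-miR-21 mice received lademirsen, an oligonucleotide that inhibits miR-21, at 50 mg/kg in PBS by weekly subcutaneous injection. The 3 ACEi mice drank the angiotensin-converting enzyme inhibitor ramipril in their water, at 11 mg/L by the sample labels (4 mg/kg by the deposited list of libraries), and by the study's methods also received the vehicle. Every treated mouse was therefore a knockout, and no WT mouse received vehicle, so genotype and vehicle cannot be told apart in comparisons with WT. Each library came from a mouse with its own name.

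Complex I (NADH dehydrogenase) and complex II (succinate dehydrogenase) pass electrons to coenzyme Q, complex III (cytochrome bc1) passes them on to cytochrome c, and complex IV (cytochrome c oxidase) passes them to oxygen. Complexes I, III and IV pump protons, and complex V (ATP synthase) uses the proton gradient to make ATP. The cells of the proximal tubule are rich in mitochondria and draw most of their ATP from this chain to reabsorb solutes. Several subunits exist as paralogues, one used by most tissues and the other by heart and skeletal muscle, testis or hypoxic cells, and the mitochondrial genome encodes the remaining core subunits of complexes I, III, IV and V.

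Counts on genes summed to 28474301 to 29479629 per library, and the deposited list of libraries gives 70004591 to 73294858 alignments. Values are CPM, the counts scaled to a common library size with TMM factors, and a gene was called when edgeR's quasi-likelihood test gave a Benjamini-Hochberg adjusted p under 0.05 over the 17622 genes past a filter on low counts. Transcripts of the targeted gene Col4a3 stood at 194 to 237 CPM in WT and at 27.9 to 74.8 CPM in the knockout mice. The summed level of 8 proximal tubule markers was 13500 to 17500 CPM in WT, 1500 to 4220 in Veh, 7590 to 12500 with anti-miR-21 and 7750 to 10200 with ACEi. In such whole-kidney RNA, fewer cells of a type and less RNA per cell cannot be told apart. The extraction text in the labels names adipose tissue, whereas the tissue label is kidney. Transcripts of the adipocyte hormone Adipoq exceeded 10 CPM in 4 libraries, namely Veh replicates 1, 2 and 3 and anti-miR-21 replicate 4, so counts that could rest on them are given with and without these libraries. Of the libraries, flow cell A held 3 of WT, 4 of Veh, 5 of anti-miR-21 and 1 of ACEi.

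Most of the nuclear OXPHOS genes were lower in Veh kidneys than in WT kidneys, in all 5 complexes. Of the 84 genes past the filter, 79 were called lower and 3 higher in Veh, where 34.0% of all genes tested were called lower and 39.0% higher (73.0% in all). Their median log2 fold change was −1.16, beside 0.07 over all genes tested. For 79 genes every Veh mouse lay below every WT mouse, which held for 26.1% of all genes tested. The genes called higher were Ndufa4l2, Cox6b2 and Cox8b, and those not called were Cox4i2 and Cox7a2l. Among the 79 lower genes the Veh mean was 15.8% (Cox6a2) to 68.8% (Ndufa7) of the WT mean, with a median of 44.1%. Cox7b2 had 5 counts over all 20 libraries and Cox8c had 0, and neither passed the filter. The counts of the whole list made up 2.1 to 2.29% of each WT library and 1.22 to 1.54% of each Veh library.

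The direction did not turn for most genes with another scaling, but the size did. The TMM factors followed the groups, at 0.771 to 0.850 in WT, 0.882 to 1.05 in the treated mice and 1.12 to 1.26 in Veh. With library totals alone in their place, the median over all genes tested moved to 0.65 and 11621 genes were called higher against 2685 lower. The median of the OXPHOS genes moved with it to −0.58, with 75 called lower and 5 higher. Among the libraries of flow cell A the test called 79 OXPHOS genes lower and 2 higher, and without the 4 libraries with adipocyte transcripts it called 79 lower and 2 higher of 83.

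Per mouse, the median over the subunits of a complex was set against the WT means of the same genes, on the log2 CPM scale. In Veh it was −1.19 ± 0.2 (SD, n = 6) for complex I, −1.4 ± 0.19 for complex II, −1.28 ± 0.21 for complex III, −1.1 ± 0.2 for complex IV and −1.12 ± 0.19 for complex V. These medians correspond to 43.9%, 38.0%, 41.2%, 46.6% and 46.1% of WT. Inside a single Veh mouse the complexes lay within 0.23 to 0.46 of each other. In every Veh mouse complexes II and III lay below complex I, and complex I lay below complexes IV and V. Within the Veh mice, complex II was the lowest of the 5 in 5 of 6 mice and complex III in the other, and the highest was complex IV in 4 mice and complex V in 2. These orders are descriptions, since complex II rests on 4 subunits only.

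**Figure D1:**
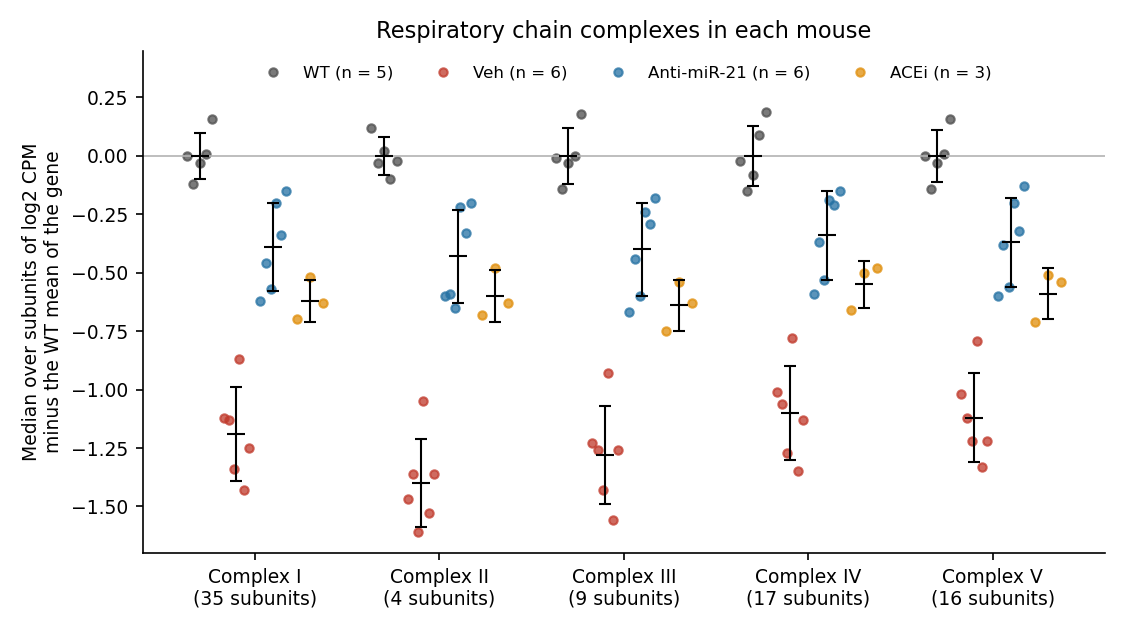
Median over the subunits of each complex of log2 CPM minus the WT mean of the gene (vertical axis), 1 point per mouse, with bars for mean ± SD. In each complex the 6 Veh mice lie lowest, from −0.87 to −1.43 in complex I, and the anti-miR-21 and ACEi means lie between those of Veh and WT. In complex V 1 anti-miR-21 mouse at −0.13 lies above a WT mouse at −0.14, and in complex IV the nearest mice of these groups are both at −0.15.

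Some of the genes held motif letters in their promoters, which the choice by symbol did not use. RefSeq promoter windows (GRCm38.p6) from 250 bases before to 50 bases after a start site were given for 67 of the 86 genes, and 6 had 2 windows. Both strands were searched for the letters of 5 motifs: GCGCA followed directly by TGCGC for NRF-1, CCGGAAG for the ETS family factor GABP, AAGATGGC for YY1, TCAAGGTCA for the estrogen-related receptors (ERR) and ACGTG for the hypoxia response element. The NRF-1 letters were found in 5 genes (7.46%, against 1.07% of the 27025 genes with windows), the GABP letters in 16 (23.9% against 9.93%), the YY1 letters in 10 (14.9% against 3.19%), the ERR letters in 2 (2.99% against 0.466%) and the hypoxia letters in 17 (25.4% against 21.8%). Of the 10 genes with YY1 letters, 7 were counted with complex I and 3 with complex V. These are similar shares, 22.6% of the 31 complex I genes and 21.4% of the 14 complex V genes with windows. In 9 genes these letters stood on the gene's own strand after the start site (13.4%, against 1.04% of all genes), where they hold an ATG. The median GC content of the windows was 57.3% against 52.7%, and 27 of the 67 genes held none of the 5 motifs. The median log2 fold change in Veh was −1.13 with and −1.16 without the NRF-1 letters, −1.1 and −1.16 for YY1, −1.13 and −1.16 for GABP, and −1.2 and −1.15 for the hypoxia letters. A match is a description of the letters and not a binding site.

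Of these windows, 5 are printed 5′ to 3′ on the gene's strand, in lower case with motif letters in capitals, because they stand for the contrasts described next. Ndufs7, a core subunit of complex I, shows the YY1 letters 25 bases after the start and lies at chr10:80249199-80249498 (plus strand). Cox6b1 and Cox6b2 are the ubiquitous and the testis-type paralogues of a complex IV subunit and moved in opposite directions, and their windows lie at chr7:30626065-30626364 and chr7:4753045-4753344 (minus strand). Atp5g2 and Atp5g3 encode the same c subunit of ATP synthase and differed in size of change, with windows at chr15:102670998-102671297 and chr2:73911277-73911576 (minus strand). The capitals mark YY1 in Ndufs7, GABP on the opposite strand in Cox6b1, the hypoxia letters and NRF-1 in Atp5g2, and the hypoxia letters on both strands and ERR in Atp5g3, while Cox6b2 held no match.
Ndufs7: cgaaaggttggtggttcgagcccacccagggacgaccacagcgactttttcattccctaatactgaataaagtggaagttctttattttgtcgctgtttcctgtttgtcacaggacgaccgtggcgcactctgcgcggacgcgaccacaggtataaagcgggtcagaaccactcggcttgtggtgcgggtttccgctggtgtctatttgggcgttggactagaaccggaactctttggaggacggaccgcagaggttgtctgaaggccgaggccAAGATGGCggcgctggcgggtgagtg
Cox6b1: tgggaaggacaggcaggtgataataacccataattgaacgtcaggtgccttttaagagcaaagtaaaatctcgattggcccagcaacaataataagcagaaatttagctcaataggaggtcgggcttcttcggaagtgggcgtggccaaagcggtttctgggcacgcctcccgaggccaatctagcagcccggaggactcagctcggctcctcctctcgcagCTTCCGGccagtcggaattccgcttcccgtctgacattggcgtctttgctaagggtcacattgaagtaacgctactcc
Cox6b2: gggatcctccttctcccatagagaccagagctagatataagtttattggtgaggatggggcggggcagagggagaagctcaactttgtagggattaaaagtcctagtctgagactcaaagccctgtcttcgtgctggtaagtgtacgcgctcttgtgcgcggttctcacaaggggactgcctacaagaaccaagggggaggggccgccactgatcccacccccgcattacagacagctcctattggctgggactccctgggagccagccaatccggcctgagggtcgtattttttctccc
Atp5g2: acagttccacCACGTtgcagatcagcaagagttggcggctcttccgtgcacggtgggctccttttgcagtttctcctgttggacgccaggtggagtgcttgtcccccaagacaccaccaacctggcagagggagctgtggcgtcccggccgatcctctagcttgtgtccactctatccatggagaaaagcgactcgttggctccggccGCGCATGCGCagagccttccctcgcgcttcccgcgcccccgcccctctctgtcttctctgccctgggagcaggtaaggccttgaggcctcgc
Atp5g3: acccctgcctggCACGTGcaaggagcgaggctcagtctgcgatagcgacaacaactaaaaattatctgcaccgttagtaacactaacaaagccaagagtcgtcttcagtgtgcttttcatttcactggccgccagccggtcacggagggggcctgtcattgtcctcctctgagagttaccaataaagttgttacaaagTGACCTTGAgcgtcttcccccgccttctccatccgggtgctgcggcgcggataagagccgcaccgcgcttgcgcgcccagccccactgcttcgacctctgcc

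All 35 complex I genes were called lower in Veh, with log2 fold changes from −1.75 to −0.54 and a median of −1.18. The 7 core subunits, which hold the flavin and the iron-sulfur clusters, had a median of −1.29, and the 28 accessory subunits a median of −1.13. Ndufs1 (chr1:63143596-63176833, GRCm38), the largest of the core subunits, fell most in the complex. Its level in the WT mice was 296, 299, 328, 348 and 349 CPM, in the Veh mice 70.4 to 135 CPM (median 91.5), with anti-miR-21 190 to 267 CPM (median 220) and in the ACEi mice 188, 195 and 204.3 CPM. Every Veh mouse lay below every other mouse, and every treated mouse below every WT mouse. The log2 fold change in Veh was −1.75 (SE 0.129, adjusted p = 2.37e-10), a 3.37-fold lower level. Ndufa10, an accessory subunit of the matrix side, followed with −1.50 (SE 0.106, adjusted p = 1.44e-10).

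At the other end of complex I stood accessory subunits. Ndufa7 measured 62.6, 68.8, 69.6, 70.1 and 78.3 CPM in WT, 41.2 to 55.1 CPM (median 48.1) in Veh, 53.9 to 70.9 CPM (median 64.9) with anti-miR-21 and 49.7, 54.8 and 59.5 CPM with ACEi. Veh and WT did not overlap, whereas the treated mice overlapped with Veh. Its log2 fold change was −0.54 (SE 0.0892, adjusted p = 1.65e-05), and with library totals alone it was 0.04. Ndufa3 and Ndufa11, further accessory subunits of the membrane arm, changed by −0.85 and −0.88. Levels between genes are compared in the authors' FPKM, which are normalised for length, for the 82 genes with an entry. Of these entries, 18 are marked as confounded with another gene, and the gene models behind them may differ from those of the counts. The highest WT mean of the complex was that of Ndufb9 (382 FPKM) and the lowest that of Ndufa11 (37.5 FPKM). Ndufab1 was called lower in Veh as well, with a log2 fold change of −1.35.

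The 4 subunits of succinate dehydrogenase, which is also an enzyme of the citric acid cycle, had a median log2 fold change of −1.40 in Veh. Sdhb, the iron-sulfur subunit, measured 482, 482, 527, 535 and 538 CPM in WT, 141 to 222 CPM (median 165) in Veh, 301 to 448 CPM (median 348) with anti-miR-21 and 283, 300 and 345 CPM with ACEi. The 4 groups separated into WT at the top, the treated mice in the middle and Veh at the bottom, with overlap between the treatments only. Its log2 fold change was −1.59 (SE 0.119, adjusted p = 2.96e-10). Sdha, the flavoprotein that oxidises succinate, changed by −1.49, and the membrane anchors Sdhc and Sdhd by −1.32 and −1.16. The standard errors were 0.115 for Sdha, 0.103 for Sdhc and 0.093 for Sdhd, and the differences between the subunits were not tested. By length-normalised level Sdhb was the highest at a WT mean of 390 FPKM and Sdhd the lowest at 226 FPKM.

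In complex III all 9 genes were called lower, with a median of −1.26. The core proteins Uqcrc1 and Uqcrc2, the Rieske protein Uqcrfs1 and cytochrome c1 (Cyc1) had a median of −1.47, and the 5 small subunits one of −1.20. Uqcrfs1, which carries electrons from coenzyme Q to cytochrome c1, measured 451, 486, 494, 535 and 567 CPM in WT, 132 to 204.9 CPM (median 153) in Veh, 282 to 415 CPM (median 333) with anti-miR-21 and 269, 295 and 324 CPM with ACEi. No Veh mouse reached the level of a treated mouse, and no treated mouse that of a WT mouse. The log2 fold change in Veh was −1.69 (SE 0.122, adjusted p = 1.84e-10). Uqcrc2 changed by −1.49 (SE 0.105). The small subunits Uqcrb and Uqcrh, of which the second is the hinge protein next to cytochrome c1, changed least, by −1.07 (SE 0.124) and −0.94 (SE 0.101). The WT means ran from 246 FPKM for Uqcrq to 420 FPKM for Uqcr10, both small subunits.

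Complex IV held the genes that departed from the common direction. Of its 17 tested subunits, 13 were called lower in Veh and 3 higher, and the median was −1.11. The ubiquitous subunits moved within a narrow range, from −1.35 for Cox7a2 and Ndufa4 to −0.98 for Cox4i1. Cox4i1, a large nuclear subunit involved in the regulation of the enzyme by ATP, measured 695, 713, 763, 767 and 784 CPM in WT, 331 to 433 CPM (median 378) in Veh, 541 to 713 CPM (median 624) with anti-miR-21 and 485, 515 and 562 CPM with ACEi. All Veh mice lay below all other mice, and the anti-miR-21 mice overlapped with WT. It had the highest WT mean of the complex at 902 FPKM (log2 fold change −0.98, SE 0.0898, adjusted p = 4.95e-09), and among the genes past the count filter Cox8b had the lowest at 0.289 FPKM. Cox7b2 and Cox8c, which did not pass it, were listed at 0 in every WT mouse. Cox7a2l, the assembly protein, was at 104 to 114 CPM in WT and 97.2 to 138 CPM in Veh, with a log2 fold change of 0.12 (SE 0.08, adjusted p = 0.189). The change was −0.03 without the libraries with adipocyte transcripts, and 0.70 and called higher with library totals alone.

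In complex V all 16 subunits were called lower. The median was −1.42 for the α, β and γ subunits of the F1 head, −1.10 for its δ and ε subunits, −1.14 for the 3 genes of the c subunit and −1.03 for the other subunits of the membrane part and the stalk. Atp5b, the catalytic β subunit, had the highest FPKM of all the OXPHOS genes with an entry, with a WT mean of 1670 FPKM, in an entry marked as confounded. It measured 3620, 3630, 3860, 3880 and 4070 CPM in WT, 1170 to 1770 CPM (median 1280) in Veh, 2380 to 3230 CPM (median 2700) with anti-miR-21 and 2230, 2330 and 2660 CPM with ACEi. Its groups did not overlap except for the treatments with each other, and its log2 fold change in Veh was −1.51 (SE 0.116, adjusted p = 4.4e-10). Atp5f1, subunit b of the peripheral stalk, followed with −1.48 (SE 0.111). Atp5l, subunit g of the membrane part, was near the other end at −0.78 (SE 0.171). It was at −0.99 with the counts of all its processed copies added, of which Gm10221 held the most. Atp5j, a subunit of the stalk, had the lowest WT mean of the subunits with an FPKM entry, 292 FPKM in an entry also marked as confounded, and the accessory factor Atp5s stood at 7.53 FPKM and changed by −0.58 (SE 0.0811).

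The c subunit, which forms the ring that turns in the membrane, is encoded by Atp5g1, Atp5g2 and Atp5g3 with identical mature proteins. Atp5g2 (chr15:102662864-102672352) measured 231, 258, 261, 264 and 274 CPM in WT, 152 to 202.1 CPM (median 176) in Veh, 200 to 251 CPM (median 231) with anti-miR-21 and 184, 187 and 200.9 CPM with ACEi. Veh lay below WT in every mouse, and both treatments overlapped with Veh. Its log2 fold change of −0.57 (SE 0.0767, adjusted p = 1.21e-06) was the smallest of the subunits of complex V, beside −1.14 (SE 0.153) for Atp5g1 and −1.27 (SE 0.111) for Atp5g3, and it became 0.02 with library totals alone. The share of the 3 genes' summed FPKM that came from Atp5g2 does not depend on the scaling between libraries. It was 20.9% ± 0.853 (SD, n = 5) in WT, 30.6% ± 3.48 (SD, n = 6) in Veh, 23.3% ± 0.879 (SD, n = 6) with anti-miR-21 and 22.7% ± 0.732 (SD, n = 3) with ACEi. The lowest Veh share, 25.3%, lay above the highest WT share, 22.1%. The share of Atp5g3, whose window with the ERR letters is printed above, was 56.3% in WT and 49.4% in Veh. A processed copy of Atp5g1, Gm10039, held 0.677 to 38.5% of the counts of the pair. Whether reads of the copy also affect the FPKM is not known, so the shares of all 3 genes carry this uncertainty.

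**Figure D2:**
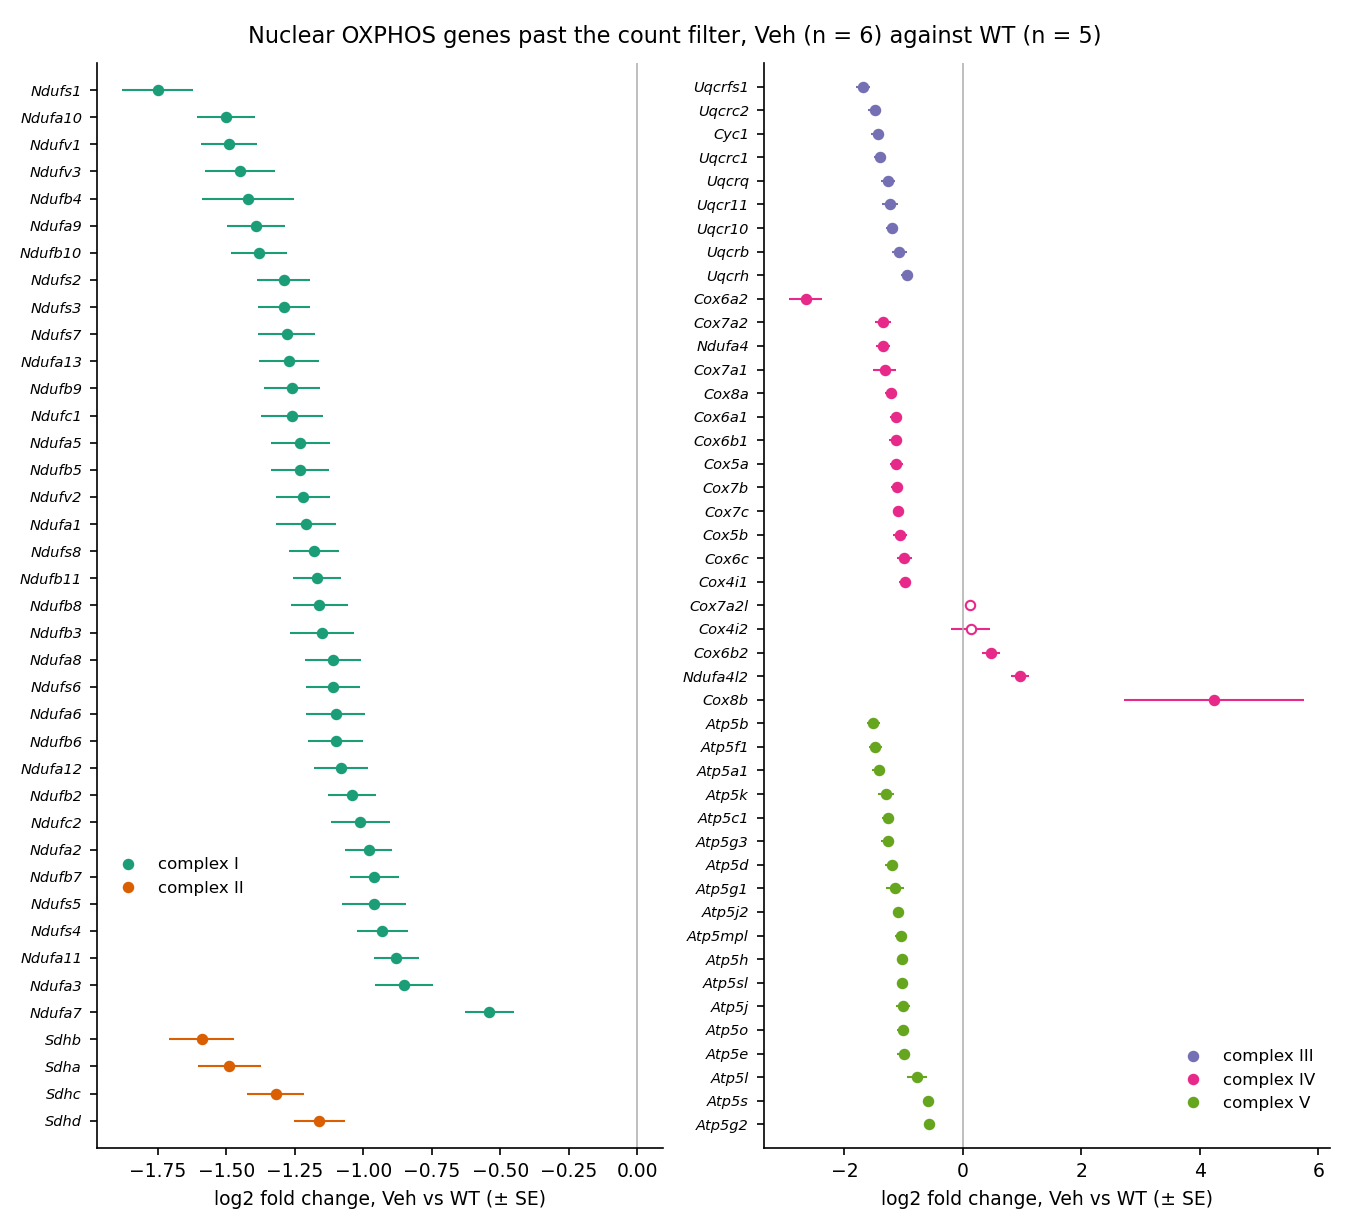
Log2 fold change of Veh against WT (horizontal axis, ± SE) for the 84 OXPHOS genes past the count filter, ordered within complexes I to V, with open symbols for the genes not called. All genes of complexes I, II, III and V lie left of 0, and in complex IV Cox7a2l, Cox4i2, Cox6b2, Ndufa4l2 and Cox8b lie right of it.

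For 6 pairs of complex IV paralogues the log2 ratio of both genes was taken within each mouse, from log2 CPM with a prior count of 2. This removes the scaling between libraries for genes with many counts. For genes with few counts, such as Cox4i2, Cox6a2 and Cox8b, the prior count is scaled with the library and still enters the ratio. The ratios were compared with exact two-sided permutation tests over mice, adjusted over 24 tests (6 pairs in 4 comparisons). The smallest p that 6 against 5 mice allow is 0.00433, and 3 against 6 mice allow 0.0238. In Veh against WT, 4 of the 6 ratios passed the threshold, 3 of them toward the rarer paralogue.

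Ndufa4l2 (chr10:127514967-127517154), a paralogue of Ndufa4 known as a hypoxia-induced gene, measured 3.31, 4.36, 4.45, 5.28 and 6.4 CPM in WT, 6.62 to 11.2 CPM (median 9.53) in Veh, 5.94 to 7.5 CPM (median 6.37) with anti-miR-21 and 6.2, 6.75 and 7.62 CPM with ACEi. Veh lay above WT in every mouse, and both treatments overlapped with Veh and with WT. The log2 fold change was 0.96 (SE 0.15, adjusted p = 8.65e-06) in Veh against WT and −0.50 (SE 0.139, adjusted p = 0.0045) with anti-miR-21 against Veh. The latter was −0.38 with an adjusted p of 0.0887 without the libraries with adipocyte transcripts. With ACEi against Veh it was −0.43 (SE 0.173, adjusted p = 0.0516), close to the threshold. It was called lower there by DESeq2 (adjusted p = 0.0299), by limma on FPKM with either pseudocount, with the other scalings tried, with a filter on every mouse and without Veh replicate 5 (adjusted p = 0.0238). Its share of the counts of the pair was 0.646 to 1.67% in WT, 3.85 to 5.92% in Veh, 1.53 to 2.38% with anti-miR-21 and 1.95 to 2.54% with ACEi. The log2 ratio rose by 2.32 in Veh (permutation p = 0.00433, adjusted 0.0208) and changed by −1.39 with anti-miR-21 against Veh (permutation p = 0.00216, adjusted 0.0208), in both cases with groups that did not overlap. With ACEi it differed by −1.16, and the 3 against 6 mice gave the smallest p their number allows, 0.0238 (adjusted 0.0816, exact permutation test). Shmt2 overlaps the gene on the opposite strand, and whether counting used the strand is not given in the sources used here. The summed level of 7 pericyte and vascular smooth muscle markers moved alongside, at 156 to 203.6 CPM in WT, 374 to 454 in Veh, 240 to 303 with anti-miR-21 and 306 to 315 with ACEi. Of these markers Rgs5, Cspg4, Pdgfrb and Notch3 were called higher in Veh and Kcnj8 and Abcc9 lower. Of all genes tested, 39.0% were called higher there and 34.0% lower. The part of these markers in the result was not tested.

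Cox6b2 (chr7:4751792-4753094), the testis-type paralogue of Cox6b1, measured 3.04, 3.1, 3.39, 3.65 and 5.37 CPM in WT, 4.79 to 5.64 CPM (median 5.17) in Veh, 5.54 to 7.83 CPM (median 5.98) with anti-miR-21 and 4.79, 5.72 and 7.42 CPM with ACEi. WT replicate 2, at 5.37 CPM, lay among the Veh mice, and the other WT mice lay below them. The log2 fold change in Veh was 0.48 (SE 0.151, adjusted p = 0.00693), and 0.38 (adjusted p = 0.106) within flow cell A. It was also called higher in the treated mice than in WT, with 0.79 (adjusted p = 0.000355) for anti-miR-21 and 0.69 (adjusted p = 0.00351) for ACEi against WT. Cox6b1 meanwhile fell by 1.13 on the log2 scale in Veh. The share of Cox6b2 in the pair was 0.909 to 1.86% in WT, 2.71 to 4.23% in Veh, 1.83 to 2.85% with anti-miR-21 and 2.42 to 3.07% with ACEi. The log2 ratio rose by 1.65 in Veh (permutation p = 0.00433, adjusted 0.0208) and differed by −0.50 with anti-miR-21 from Veh (permutation p = 0.00649, adjusted 0.026), a call that was lost (adjusted p = 0.0519) when any of Veh replicates 1, 2, 3, 5 and 6 or anti-miR-21 replicates 2, 3, 5 and 6 was left out, with fewer mice and so a larger smallest p.

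Cox4i2, the paralogue of Cox4i1 used in lung and in oxygen-sensing cells, was near the detection limit, with 8 to 36 counts per library. Its own log2 fold change of 0.13 (SE 0.325, adjusted p = 0.736) did not pass the test. With library totals alone it was 0.70 and called higher (adjusted p = 0.0493, edgeR). By limma it was also called higher, at 0.31 on FPKM + 1 (adjusted p = 0.0477) and 0.62 on FPKM + 0.1 (adjusted p = 0.0383). With Cox4i1 lower, the ratio rose by 1.08 in Veh (permutation p = 0.00433, adjusted 0.0208). Its share of the counts of the pair was 0.044 to 0.112% in WT and 0.11 to 0.252% in Veh, so that in raw counts 1 WT mouse overlapped with the lowest Veh mouse. With anti-miR-21 against Veh the ratio differed by −0.41 (permutation p = 0.158) and with ACEi by −0.52 (permutation p = 0.0952), neither of which passed.

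Cox6a2 and Cox7a1 are the heart and skeletal muscle forms of Cox6a1 and Cox7a2. Cox6a2 (chr7:128205435-128206387) measured 1.35, 2.13, 2.26, 2.66 and 3.56 CPM in WT, 0.247 to 0.497 CPM (median 0.393) in Veh, 0.552 to 1.36 CPM (median 0.892) with anti-miR-21 and 0.557, 0.68 and 1.06 CPM with ACEi. The Veh mice lay below all others. Its log2 fold change of −2.65 (SE 0.28, adjusted p = 3.87e-08) was the lowest of all the OXPHOS genes, and the ratio to Cox6a1 fell by 1.30 on the log2 scale (permutation p = 0.00433, adjusted 0.0208). Itgad lies over it on the opposite strand and was called higher in Veh, with a log2 fold change of 5.10. Cox7a1 fell by 1.32 on the log2 scale (SE 0.198, adjusted p = 4.59e-06), the ratio to Cox7a2 differed by 0.02 (permutation p = 0.961), and its share of the pair was 4.34 to 5.22% in WT and 3.77 to 6.74% in Veh. Of 6 striated muscle markers, 3 passed the count filter, with Acta1 called higher and Myh6 and Actn2 lower in Veh, and their summed level was 1.06 to 2.1 CPM in WT and 1.69 to 4.06 CPM in Veh.

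**Figure D3:**
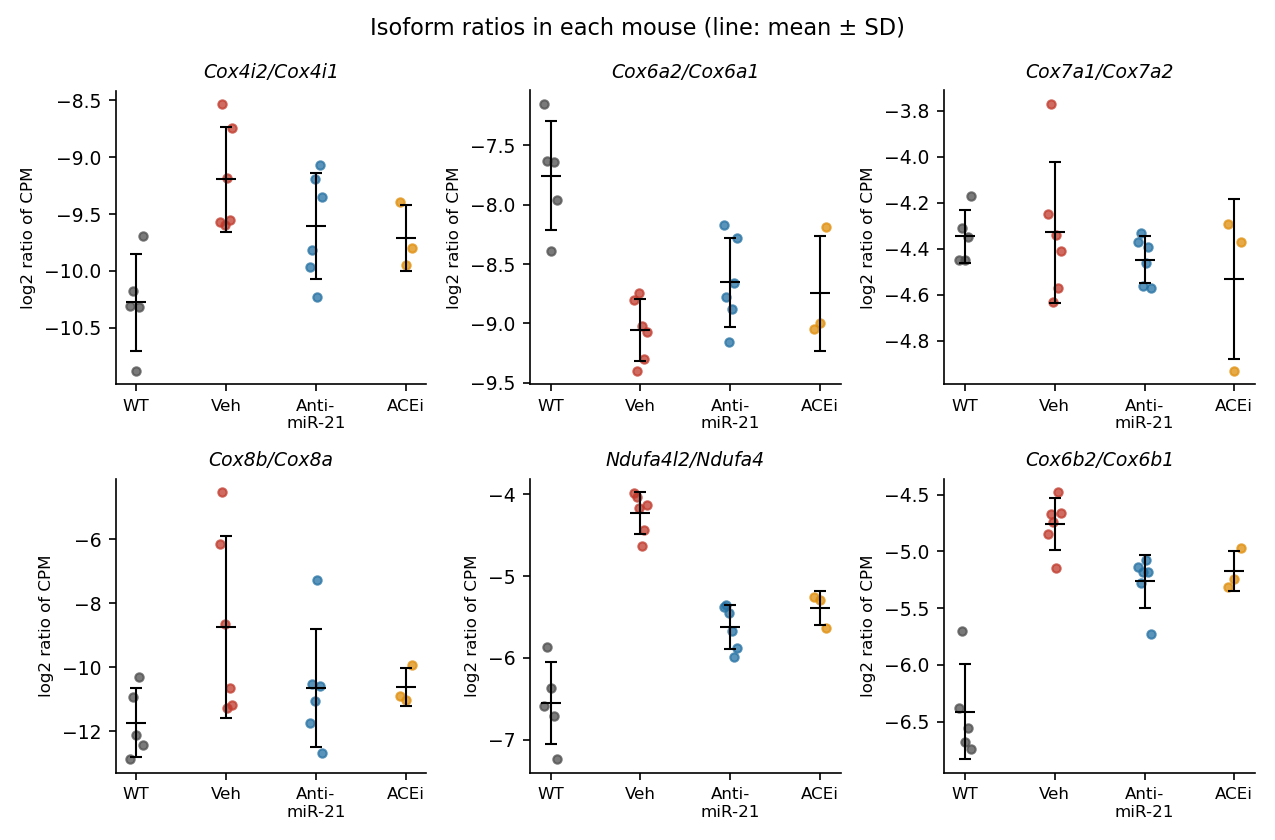
Log2 ratio of the CPM of the rarer to the ubiquitous paralogue in each mouse (vertical axes, each with its own range), with bars for mean ± SD in the 5 WT, 6 Veh, 6 anti-miR-21 and 3 ACEi mice. Veh lies apart from WT without overlap for Cox4i2, Cox6a2, Ndufa4l2 and Cox6b2 and overlaps with WT for Cox7a1 and Cox8b. In raw counts the highest WT share of Cox4i2 in its pair (0.112%) exceeds the lowest Veh share (0.11%).

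Cox8b (chr7:140898945-140900446), the paralogue of Cox8a found in heart, muscle and brown fat, rested on a few libraries. It measured 0, 0.0419, 0.0422, 0.164 and 0.368 CPM in WT, 0.0282 to 10.7 CPM (median 0.237) in Veh, 0 to 2.96 CPM (median 0.135) with anti-miR-21 and 0.0984, 0.107 and 0.238 CPM with ACEi. Veh replicate 2 held 10.7 CPM, Veh replicate 1 held 3.37 CPM and anti-miR-21 replicate 4 held 2.96 CPM, and all the other mice were under 1 CPM. The log2 fold change in Veh was 4.24 (SE 1.52, adjusted p = 0.0171), but 2.61 (adjusted p = 0.102) without Veh replicate 2 and 3.41 (adjusted p = 0.0675) with flow cell as a term. The ratio to Cox8a differed by 2.99 (permutation p = 0.0433, adjusted 0.127). The same 3 libraries held the most Ucp1, the uncoupling protein of brown fat, at 19.2 CPM in Veh replicate 1, 48.7 in Veh replicate 2 and 20.9 in anti-miR-21 replicate 4, against at most 1.47 CPM elsewhere. The lipid droplet gene Cidea was at 12.1, 24.3 and 15.7 CPM there. The summed level of 6 adipocyte markers was 0.82 to 9.07 CPM in WT, 0.705 to 186 in Veh, 1.83 to 129 with anti-miR-21 and 0.393 to 2.79 with ACEi. Of the 6, 5 were called higher in Veh, beside 39.0% of all genes tested. Without the 4 libraries above 10 CPM of Adipoq, Cox8b no longer passed the count filter.

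**Figure D4:**
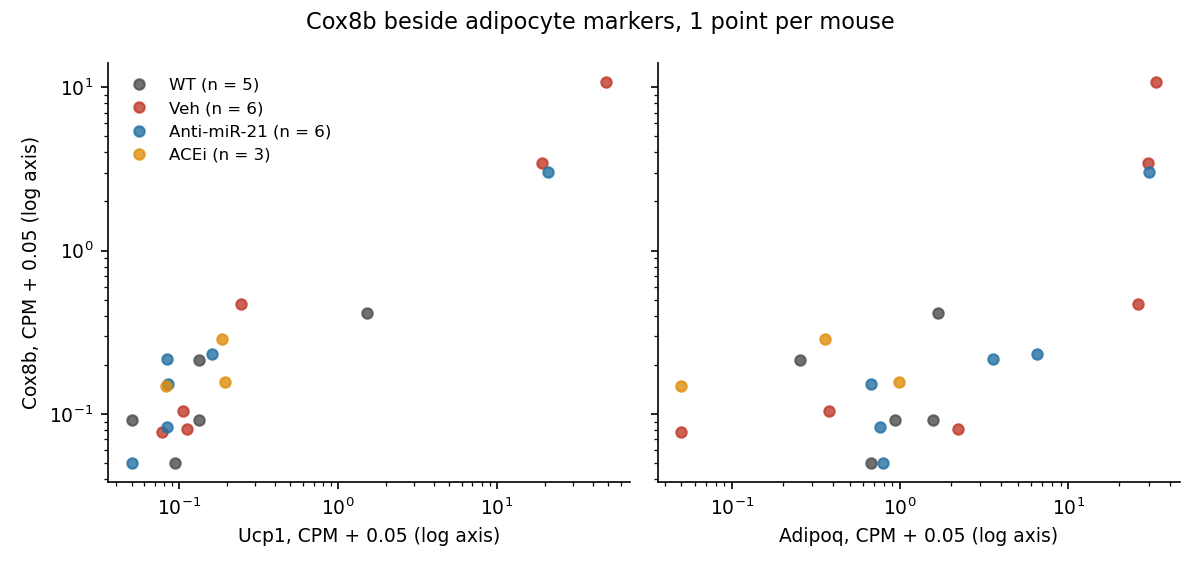
Cox8b (vertical axis) against the adipocyte genes Ucp1 and Adipoq (horizontal axes) in each of the 20 mice, in CPM with 0.05 added, on log axes. The 3 mice with the most Cox8b, at 2.96, 3.37 and 10.7 CPM, are also the 3 with the most Ucp1 and are among the 4 with Adipoq above 10 CPM.

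With anti-miR-21, the OXPHOS genes were higher than in Veh in every complex. Of the 84 genes, 79 were called higher and 1 lower (Ndufa4l2), where 28.8% of all genes tested were called higher and 30.5% lower (59.2% in all), and the median log2 fold change was 0.79 beside −0.04 over all genes. In 72 of them every anti-miR-21 mouse lay above every Veh mouse, against 18.6% of all genes tested. The median was 0.80 in complex I, 0.97 in complex II, 0.91 in complex III and 0.73 in complexes IV and V. Ndufs1 changed by 1.20 (SE 0.123), Uqcrfs1 by 1.13 (SE 0.116), Sdhb by 1.10 (SE 0.114) and Atp5b by 1.04 (SE 0.111), whereas Ndufa7 changed by 0.40 and Atp5g2 by 0.39. Cox6b2 at 0.30 (adjusted p = 0.0697), Cox4i2 at 0.35, Cox7a2l at −0.12 and Cox8b at −2.09 did not pass. Within flow cell A 79 genes were called higher and 1 lower, and without the libraries with adipocyte transcripts 79 were higher and 0 lower of 83. With library totals alone, 76 were higher and 2 lower with a median of 0.45, while the median over all genes tested was −0.38.

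With ACEi, 75 genes were called higher than in Veh and 0 lower (75 and 2 by DESeq2, the 2 being Ndufa4l2 and Cox8b), where 21% of all genes tested were called higher (40.1% in all), with a median log2 fold change of 0.56 beside −0.05 over all genes. For 66 genes every ACEi mouse lay above every Veh mouse, against 19.8% of all genes tested. The medians were 0.58 in complex I, 0.79 in complex II, 0.72 in complex III, 0.52 in complex IV and 0.54 in complex V. Ndufs1 changed by 1.03 (SE 0.145), Uqcrfs1 by 0.91 (SE 0.137), Sdha by 0.89 (SE 0.129) and Sdhb by 0.86 (SE 0.134). Besides the 5 genes that did not follow the common direction in Veh, Ndufa7 at 0.19 (adjusted p = 0.163), Atp5g2 at 0.13 (adjusted p = 0.259), Cox7a1 at 0.51 (adjusted p = 0.0803) and Atp5s at 0.15 (adjusted p = 0.212) did not pass. The 3 ACEi mice had 1 library on flow cell A, so no comparison within that flow cell was possible, and with flow cell as a term 73 genes were called higher. Without the libraries with adipocyte transcripts the count was 69 of 83. With library totals alone it was 56 higher and 2 lower with a median of 0.29, while the median over all genes tested was −0.32. Both treatments were compared with the same 6 Veh mice.

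Set directly against each other, anti-miR-21 and ACEi gave 0 called OXPHOS genes (edgeR's quasi-likelihood test, 0.584% of all genes tested called), and DESeq2 also called 0. At an unadjusted p under 0.05 there were 20 of 84, beside 14.5% of all genes tested. The log2 fold change was above 0 in 83 of the 84, with Ndufa4l2 (−0.06) as the exception, beside 51.1% of all genes, and the median was 0.22 beside 0.01. Only for Ndufa11 and Ndufb11, accessory subunits of the membrane arm, did every anti-miR-21 mouse lie above every ACEi mouse, at log2 fold changes of 0.29 (SE 0.0973, adjusted p = 0.179) and 0.26 (SE 0.104, adjusted p = 0.257), and such separation held for 4.19% of all genes tested. The genes were measured in the same mice and are not independent of each other.

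Against WT, 68 OXPHOS genes remained lower with anti-miR-21 and 2 were higher, where 19.8% of all genes tested were called lower and 23.8% higher (43.7% in all), with a median of −0.38 beside 0.01. With ACEi 76 were lower and 2 higher, where 22.5% of all genes were called lower and 25.1% higher (47.7% in all), with a median of −0.60 beside 0.00. The 2 higher genes were Cox6b2 and Ndufa4l2 in both comparisons, which share the WT mice. Every anti-miR-21 mouse lay below every WT mouse for 35 genes (9.06% of all genes tested) and every ACEi mouse for 76 genes (22.3% of all genes tested). The medians per mouse were −0.39 ± 0.19 (SD, n = 6) with anti-miR-21 and −0.62 ± 0.09 (SD, n = 3) with ACEi for complex I, −0.43 ± 0.2 and −0.6 ± 0.11 for complex II, −0.4 ± 0.2 and −0.64 ± 0.11 for complex III, −0.34 ± 0.19 and −0.55 ± 0.1 for complex IV, and −0.37 ± 0.19 and −0.59 ± 0.11 for complex V. The groups of treated mice overlapped in every complex. All 79 genes lower in Veh had group means in the order WT, anti-miR-21, ACEi and Veh. The anti-miR-21 mean was 38.3% (Cox6a2) to 97.1% (Atp5l) of the WT mean with a median of 76.6%, and the ACEi mean 31.9% (Cox6a2) to 82.9% (Atp5l) with a median of 65.4%. With library totals alone, the calls against WT were 20 lower and 3 higher with anti-miR-21 and 55 lower and 3 higher with ACEi, and within flow cell A anti-miR-21 gave 26 lower and 1 higher.

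The size of the difference between Veh and WT was set against the exon length listed with the FPKM and against the level. This is a description over genes that share the same libraries. Across all 77 subunits with an FPKM entry, the log2 fold change gave r = −0.26 and rho = −0.44 against log2 exon length, and r = −0.62 and rho = −0.23 against the log2 mean FPKM in WT. Across the 72 with a WT mean of at least 10 FPKM it gave r = −0.50 and rho = −0.47 against length, and r = −0.17 and rho = −0.14 against level, so the values of r turned on the 5 genes with the lowest levels. Among these 72 the median was −1.10 in 30 genes of up to 600 bases, −1.17 in 18 genes of over 600 and up to 1000 bases and −1.41 in 24 longer ones. Ndufa11, with a long listed exon length (3395 bases) and a small change, was an exception. A listed exon length comes from the gene model of the FPKM and need not be the length of the transcript in kidney. Of the genes, 20 had a processed copy with at least 95% identity over 200 bases, and for 6 the copies held at least 5% of the counts. For Ndufb4 the copy Ndufb4c held 76.1 to 88.9% of the counts of the pair, and the log2 fold change was −1.42 without and −1.54 with the copy. For Ndufs5 it was −0.96 and −1.02, and for Ndufa12 −1.08 both ways. Another annotated gene overlaps 36 of the 86 genes, which these counts cannot always separate.

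Other genes of the respiratory chain moved with the nuclear subunits. All 13 subunits encoded by the mitochondrial genome were called lower in Veh, with a median of −1.56, from mt-Nd2 (−1.82) and mt-Nd4 (−1.68) to mt-Co3 (−1.29) and mt-Atp6 (−1.25), and all 13 were called higher with anti-miR-21 and 11 with ACEi than in Veh. The mitochondrially encoded genes took 12.1 to 13.9% of the counts in WT, 5.95 to 8.14% in Veh, 9.45 to 12.6% with anti-miR-21 and 9.49 to 10.5% with ACEi. Of 17 genes of the electron carriers and of coenzyme Q synthesis, all were called lower in Veh, with a median of −1.26, including Pdss1 (−1.88), which makes the tail of coenzyme Q, and cytochrome c (Cycs, −1.87), while Coq10a (−0.53) and Coq8b (−0.15) changed least. Of the mitochondrial genes outside the chain 22 of 22 were called lower with a median of −0.98, from the chaperonin Hspd1 (−1.84) and the cristae protein Immt (−1.37) to the ADP/ATP carrier Slc25a4 (−0.47) and the import receptor Tomm22 (−0.25).

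Assembly factors fell as well, with medians nearer 0 than those of the subunits they serve. Their counts, too, stand beside 34.0% of all genes tested called lower in Veh. For complex I all 15 tested were called lower with a median of −0.92, from Acad9 (−1.95) and Ndufaf6 (−1.61) to Ndufaf5 (−0.58) and Tmem186 (−0.45). For complex II 4 of 4 were lower (median −0.83), and for complex III 5 of 6 (median −0.61), with Uqcc1 at −1.11 and Uqcc2 at 0.09 (adjusted p = 0.406). For complex IV 18 of 19 were lower (median −0.72), among them Cox15 (−1.52), which makes heme a, and Coa6 (−1.38), whereas the copper carrier Sco2 was at −0.40 and Coa4 at −0.09 (adjusted p = 0.501). For complex V 3 of 3 were lower (median −0.91). The 14 transcriptional regulators of the chain were less uniform, with 8 called lower and 4 higher in Veh. Of all genes tested, 34.0% were called lower and 39.0% higher. The median of the regulators was −0.61, beside 0.07 over all genes tested. The receptors Esrrb (−1.89) and Esrra (−1.29) were the lowest, and Gabpb1 (0.28), a subunit of GABP, and the coactivator Pprc1 (0.83) the highest.

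**Figure D5:**
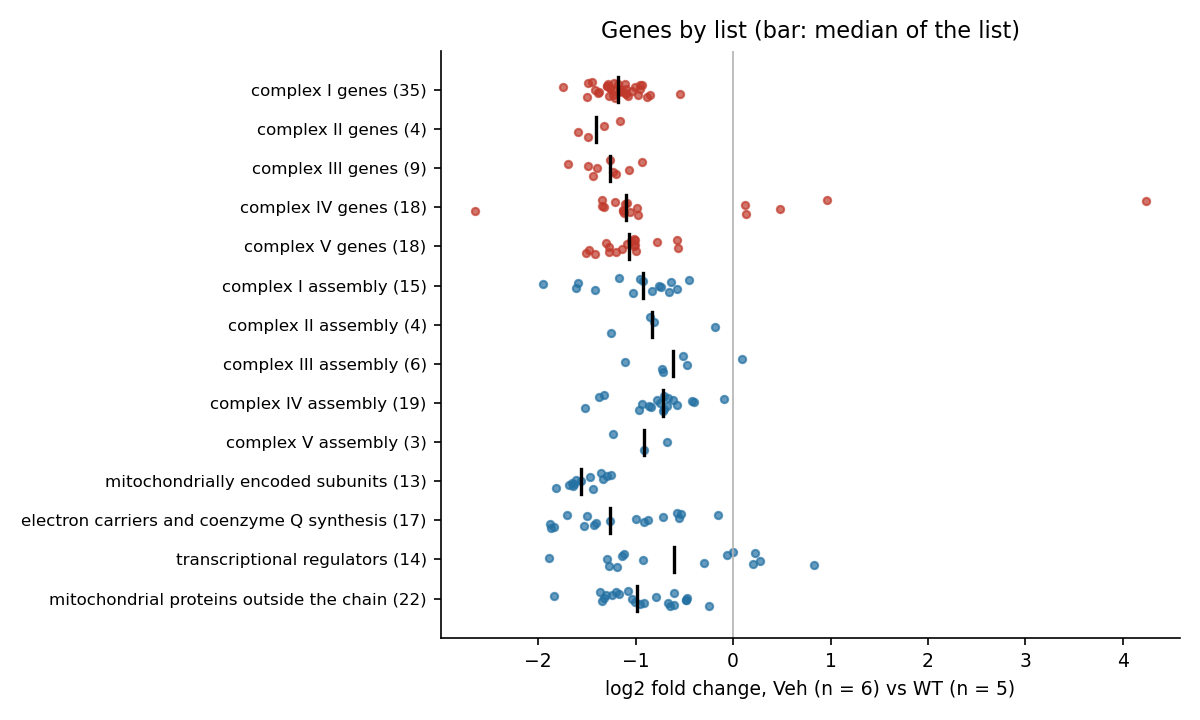
Log2 fold change of Veh against WT (horizontal axis), 1 point per gene, with a bar at the median of each list and the number of genes in brackets. The rows are the OXPHOS genes counted with complexes I to V, including Cox7a2l, Atp5s and Atp5sl, and the other lists of the respiratory chain. The medians run from −1.56 for the mitochondrially encoded subunits to −0.61 for the complex III assembly factors and the transcriptional regulators.

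Markers of the kidney's cell types were measured in the same mice, and their counts stand beside 34.0% of all genes tested called lower and 39.0% called higher in Veh. All 8 proximal tubule markers were called lower in Veh, with a median of −2.37, and all 8 were called higher than in Veh with either treatment. Of the other tubule segments, 4 of 5 markers of the thick ascending limb (median −1.10), 3 of 4 of the distal tubule (median −1.66) and 4 of 5 of the collecting duct (median −0.97) were called lower. The remaining marker was called higher in the thick ascending limb (0.59) and in the distal tubule (0.44). Called higher were 4 of 5 podocyte markers (median 0.35), 2 of 5 endothelial markers (median 0.40), a share near that of all genes, 5 of 5 fibroblast markers (median 2.09), 6 of 6 macrophage markers (median 3.99) and 5 of 5 T cell markers (median 3.62). Among the endothelial markers 1 was called lower (−0.78). All 5 erythroid markers were called lower (median −4.25), and their summed level was 1100 to 6560 CPM in WT and 12.7 to 399 CPM in Veh. The pericyte list had a median of 1.05. The part of these changes in the levels of the OXPHOS genes was not tested. Among the 6 Veh mice, replicate 4 had both the highest proximal tubule sum, 4220 CPM, and the highest Atp5b, 1770 CPM. It also had the highest median of the Veh mice in each of complexes I to V, and their lowest TMM factor, 1.12.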

How the data were processed

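Kidney RNA of 20 mice was sequenced as 100-base paired-end reads on an Illumina HiSeq instrument. The authors aligned reads with OSA4 in OmicSoft Studio 9.0 to GRCm38 and deposited estimated counts per Ensembl R83 gene. Strand use in counting is not given in the sources used here. Of the positive deposited counts, 29.1% were not whole, and counts were rounded before testing. The authors also deposited FPKM for 33368 entries, of which 9870 carry several gene names as confounded. These FPKM, which are divided by transcript length, served for levels between genes and, as log2(FPKM + 1) or + 0.1 in limma, as an alternative. From the deposited table, 3 further FPKM columns match no sample and were not used.

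Counts were tested with edgeR 4.0.16 in R 4.3.3 by its quasi-likelihood test with TMM scaling, a coefficient for each group, all 20 mice in the fit, and p-values adjusted by Benjamini-Hochberg for the 17622 genes past filterByExpr (minimum count 10, minimum total 15), with 0.05 as the threshold. Differences per mouse used log2 CPM with a prior count of 2. Paralogue ratios were compared with exact permutation tests over mice. Nothing says that the mice were handled independently beyond their separate names, so the p-values measure the spread between these mice. Alternatives were DESeq2 1.42.0, limma 3.58.1 on FPKM, other scalings and filters, flow cell as a term or flow cell A alone, the groups compared alone, leaving out each mouse and, added after the data were seen, adding the counts of processed copies (BLAST 2.17.0) and leaving out the 4 libraries with adipocyte transcripts. The scripts were tested on simulated counts with known changes. Promoter windows are from RefSeq and gene positions from GENCODE on the same build.

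The genes and lists were chosen with earlier results of these data known. The text names genes above 0 or not called in Veh against WT, the lowest and highest pair of each complex by log2 fold change, the paralogues and c subunit genes, the highest and lowest WT level per complex, genes under the filter and the extremes of each list. Ndufb11, Ndufs7, Ndufb4, Ndufs5 and Ndufa12 were named after their values were seen.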

Additional observations from a re-analysis of the deposited data

Results flagged for a closer look

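Among the named genes, 126 groups of 4 to 6 mice were tested for a single mouse that lay apart from its group (Dixon's gap over range), and 7 were marked, where chance marks about 1 in 20. Veh replicate 4 was the highest for Atp5b at 1770 CPM (others 1170 to 1380), for Atp5g3 at 412 CPM (others 256 to 311) and for Cox7a2 at 91.3 CPM (others 51.1 to 63.7). The proximal tubule sum of that mouse, 4220 CPM, and its median in each of complexes I to V were also the highest of its group. WT replicate 5 was the highest for Atp5g3 at 832 CPM (others 710 to 744). WT replicate 2 was the highest for Cox6b2 at 5.37 CPM (others 3.04 to 3.65). For Cox8b, Veh replicate 2 held 10.7 CPM (others 0.0282 to 3.37) and anti-miR-21 replicate 4 held 2.96 CPM (others 0 to 0.184), both among the libraries with adipocyte transcripts.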

How the results depend on the processing

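No paired analysis was possible because each mouse has a name of its own and nothing in the labels pairs mice across groups. The number of OXPHOS genes called stayed within 1.5 times its value in 129 of 135 alternative fits. The exceptions were anti-miR-21 against WT, with 23 genes called on FPKM with either pseudocount and with library totals and 27 within flow cell A, where the smaller number of mice also lowers the count, and ACEi against WT, with 51 on FPKM + 0.1 and 50 on FPKM + 1. Leaving out 1 mouse gave 81 to 83 genes in Veh against WT, 80 to 81 in anti-miR-21 against Veh, 68 to 76 in ACEi against Veh, 0 to 0 in anti-miR-21 against ACEi, 61 to 74 in anti-miR-21 against WT and 73 to 81 in ACEi against WT.

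With library totals in place of TMM, the complex medians in Veh, anti-miR-21 and ACEi were −0.60, −0.15 and −0.31 for complex I, −0.81, −0.19 and −0.29 for complex II, −0.69, −0.16 and −0.33 for complex III, −0.53, −0.10 and −0.23 for complex IV and −0.53, −0.12 and −0.27 for complex V. On FPKM + 0.1 they were −0.60, −0.15 and −0.30, −0.80, −0.18 and −0.28, −0.68, −0.16 and −0.32, −0.52, −0.10 and −0.22, and −0.61, −0.13 and −0.27. The FPKM were not rescaled between libraries.

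Library totals and FPKM also turned single genes. Ndufa7 in Veh against WT was 0.04 (library totals) and 0.07 (FPKM), and in ACEi against Veh −0.09 and −0.11. Atp5g2 was 0.02 in Veh against WT and −0.14 and −0.15 in ACEi against Veh. Atp5s was 0.01 and 0.02 in Veh against WT and −0.12, −0.11 and −0.13 in ACEi against Veh. Ndufa11 was −0.02 and −0.04 in ACEi against Veh. Its call there was also lost with edgeR's RLE scaling (0.24), upper-quartile scaling (0.17), flow cell as a term (0.24) and the 2 groups alone (0.24). The same happened without Veh replicate 3 (0.25) and without ACEi replicate 1 (0.29), 2 (0.22) or 3 (0.26). Cox6b2 with library totals was −0.04 with anti-miR-21 and −0.07 with ACEi against Veh. Cox7a2l in Veh against WT was called higher with library totals (0.70), on FPKM + 1 (0.69) and on FPKM + 0.1 (0.70). The same held with upper-quartile scaling (0.23), with the filter on every mouse (0.18) and without Veh replicate 6 (0.17). In anti-miR-21 against Veh it was called lower with library totals (−0.47), on FPKM (−0.46) and with upper-quartile scaling (−0.20). In ACEi against Veh it was called lower with library totals (−0.43) and on FPKM (−0.42 and −0.43). Without the libraries with adipocyte transcripts it was −0.03 in Veh against WT, with 0.04 and 0.02 for the treatments against Veh. With 1 mouse left out, Cox4i2 in Veh against WT ran from −0.08 (without Veh replicate 2) to 0.35, with −0.01 without WT replicate 3, and in ACEi against Veh from −0.25 to 0.11 (without Veh replicate 2). Atp5l in ACEi against Veh was 0.21 (adjusted p = 0.453) without ACEi replicate 3. Its call was also lost without ACEi replicate 2 (0.60) or Veh replicate 2 (0.52), 3 (0.53), 5 (0.52) or 6 (0.47). Library totals (0.24), upper-quartile scaling (0.44) and the 2 groups alone (0.50) lost it too. So did leaving out the libraries with adipocyte transcripts (0.57).

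Of the paralogue ratios, Cox6b2/Cox6b1 in anti-miR-21 against Veh was −0.33 on FPKM + 0.1 (adjusted p = 0.123) and −0.58 to −0.41 with 1 mouse left out. The other ratios called in Veh against WT kept their calls with any mouse left out. Ratios near 0 turned: Cox7a1/Cox7a2 in Veh against WT ran from −0.09 to 0.08 with 1 mouse left out, and in anti-miR-21 against ACEi Cox4i2/Cox4i1 ran from −0.01 to 0.26, Cox6a2/Cox6a1 from −0.06 to 0.37, Cox7a1/Cox7a2 from −0.12 to 0.20, Cox8b/Cox8a from −0.69 to 0.40 and Cox6b2/Cox6b1 from −0.16 to 0.01. Single values on the other side of 0 were 0.00, −0.01, −0.03, 0.06, 0.21 and 0.33. Unless stated, the cause was not tested. Cox4i2, Cox6a2 and Cox8b rest on few reads, which limits their precision.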
